A study of Rattus norvegicus with 6 samples.

Results

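The respiratory chain of the inner mitochondrial membrane was examined here as 106 genes among the 32623 of a rat liver RNA sequencing table. The members were taken by symbol: names beginning Nduf, Uqcr, Cox4 to Cox8 or Atp5, the genes Sdha to Sdhd and Cyc1, and the protein genes of mitochondrial DNA, each with at least 10 counts summed over the 6 libraries. Of 112 rows that carried such a name, 6 stayed under this minimum, and Cox8b, Cox8c and Cox6c-ps1 were listed at 0 in every library. The 106 comprised 7 nuclear core subunits of complex I, 30 accessory subunits of complex I, 8 Nduf assembly factors, 4 subunits of complex II, 10 of complex III, 17 of complex IV, 17 of ATP synthase and 13 mitochondrially encoded genes. Ndufa4 and its relative Ndufa4l2 carry complex I names and were placed with complex IV, to which the Ndufa4 protein is known to belong.

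Complex I takes electrons from NADH and complex II takes them from succinate. Ubiquinone carries both streams to complex III, cytochrome c carries them on to complex IV, which reduces oxygen, and ATP synthase uses the proton gradient built on the way. Subunits come from both genomes: mitochondrial DNA encodes the most hydrophobic parts of complexes I, III, IV and ATP synthase, and the nucleus encodes the rest, all of complex II included. Hepatocytes are known for a high content of mitochondria.

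The libraries came from rat liver after embolization, the blocking of vessels with particles. In the control group (GM, n = 3) the particles were blank microspheres, and in the other group (GZM, n = 3) they were zinc sulfide microspheres. Both groups were thus embolized, and by its title the series concerns hepatocellular carcinoma. Strain, age, time and dose are not in the labels, nor is the presence of tumour in the sampled piece. The samples are numbered as replicate biosamples without mention of animals, so the p-values may reflect technical spread alone.

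Gene counts summed to between 13443115 and 16604067 per library. The hepatocyte marker list, which checks the labelled tissue, was detected in every library, but its 18 matched genes summed to between 18190 and 66800 CPM in GM (counts scaled to library size with TMM factors) and between 165500 and 194400 CPM in GZM, and 17 of 18 were called higher in GZM. GM 3 stood apart from the other GM libraries, at 66800 CPM against 25300 and 18190. The 10 most abundant genes took 8.10% to 13.3% of counts in GM and 21.5% to 23.6% in GZM. The 14 cell division genes were all called lower in GZM, with sums of 678.1 to 1705 CPM in GM and 269.9 to 305.2 CPM in GZM. Of the other marker lists, endothelial genes were called higher in 4 of 8 cases and lower in 1, macrophage genes higher in 2 of 8 and lower in 5, and lymphocyte genes lower in 1 of 10. In bulk tissue, fewer cells of a type and less RNA per cell cannot be told apart. The part that these shifts in cell types play in the values below was not tested.

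The median member of the respiratory chain had a higher fold change, GZM over GM, than the median gene, and its sign depended on the scale. In edgeR's quasi-likelihood test with TMM factors, 103 members were tested, of which 74 were called higher in GZM and 1 lower at an adjusted p under 0.05 (Benjamini-Hochberg over all 14298 tested genes). Over all tested genes the test called 22.2% higher and 21.7% lower. The median log2 fold change was 0.74 over members and -0.09 over all tested genes. Scaled to library totals instead, 4 members were called higher and 18 lower, against 9.2% higher and 59.5% lower over all genes, and the medians were -0.10 over members and -0.92 over all genes. Both scales placed the members above the median gene, while the sign of most single members turned between them. A change of scale moves all genes by nearly the same amount, so this agreement was fixed beforehand and adds no support. Without GM 3 the count of members called higher was 78, and without both GM 3 and GZM 1 it was 75. It was 41 without GM 1 and 39 without GZM 2. DESeq2 called 75 members higher and 2 lower (19.9% and 19.2% of all genes it tested), and a fit with the replicate number as a block called 50 higher and 1 lower (18.7% and 17.4% of all). Over all genes the shares were 24.6% higher and 23.5% lower without GM 3, and 25% and 23% without both. Without GM 1 they fell to 15.1% higher and 14.3% lower, and without GZM 2 to 14.2% and 11.2%.

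**Figure D1:**
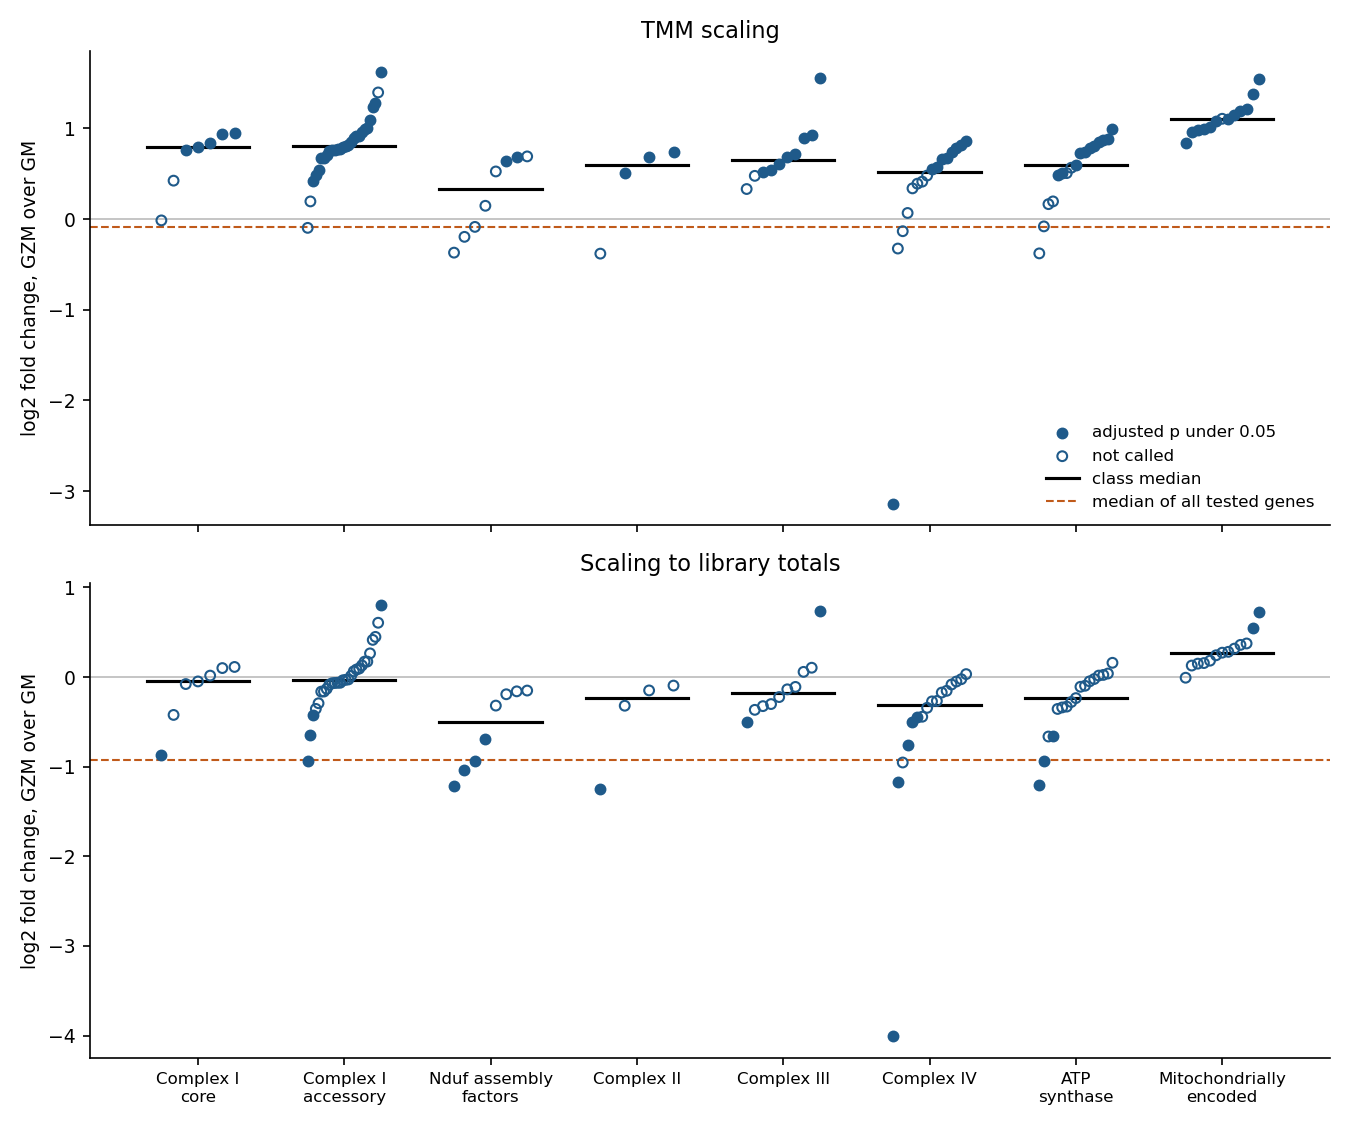
Log2 fold change (GZM over GM, vertical axis) of each tested member by class, with TMM scaling above and with library totals below; filled points are called at an adjusted p under 0.05, black bars are class medians and the dashed line is the median of all tested genes. Class medians lie between 0.33 and 1.11 above and between -0.50 and 0.27 below, and the single point far below the rest in both panels is Ndufa4l2.

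The classes did not share 1 level of change. The mitochondrially encoded genes had the highest median log2 fold change on the TMM scale, 1.11, with 12 of 13 called higher. Complex I followed, with 25 of 28 tested accessory subunits (median 0.80) and 5 of 7 core subunits (median 0.79) called higher. In complex III 8 of 10 were called higher (median 0.65), in ATP synthase 11 of 17 (median 0.60), in complex II 3 of 4 (median 0.59) and in complex IV 8 of 16 (median 0.52), with 1 lower. The assembly factors were lowest, with 2 of 8 called higher and a median of 0.33. Their share called higher, 25%, was near the 22.2% of all tested genes, whose median was -0.09. With library totals the order was the same at both ends, 0.27 for mitochondrially encoded genes and -0.50 for assembly factors. A change of scale hardly alters such an order, so this adds no support. Differences between classes were not tested. Leaving out 1 library lowered several of these counts: without GZM 2 the number called higher was 4 of 13 for mitochondrially encoded genes, 2 in complex III, 5 in ATP synthase, 1 in complex II, 3 in complex IV and 0 among assembly factors. Without GM 1 these counts were 5, 3, 5, 1, 3 and 0. Without GZM 3 they were 5, 5, 8, 2, 6 and 1, and without GZM 1 they were 10, 5, 7, 2, 4 and 1. Without GM 2 the mitochondrially encoded count was 7 and that of complex II was 2. Accessory subunits of complex I kept 20 or more calls in each of the 6 fits, and core subunits 4 or more. Over all tested genes the share called higher fell too, from 22.2% in the full fit. The shares were 14.2% without GZM 2, 15.1% without GM 1, 16.4% without GZM 3, 18.2% without GZM 1 and 19.4% without GM 2.

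Shares of the library total follow the scale of library totals, while a ratio of 2 counts within a library is free of scaling. Nuclear members took 0.832%, 0.997% and 0.793% of counts in GM 1 to 3, against 0.782%, 0.729% and 0.688% in GZM 1 to 3. Mitochondrially encoded genes took 5.90%, 6.06% and 5.73% in GM and 6.69%, 7.25% and 7.24% in GZM. For each count on a nuclear member there were 7.09, 6.08 and 7.23 counts on mitochondrially encoded genes in GM, and 8.55, 9.95 and 10.5 in GZM. All 3 GZM libraries thus lay above all 3 GM libraries in this ratio, at 9.67 ± 1.01 against 6.80 ± 0.626 (SD, n = 3 each). The part that enrichment for polyadenylated transcripts plays in this ratio was not tested.

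**Figure D2:**
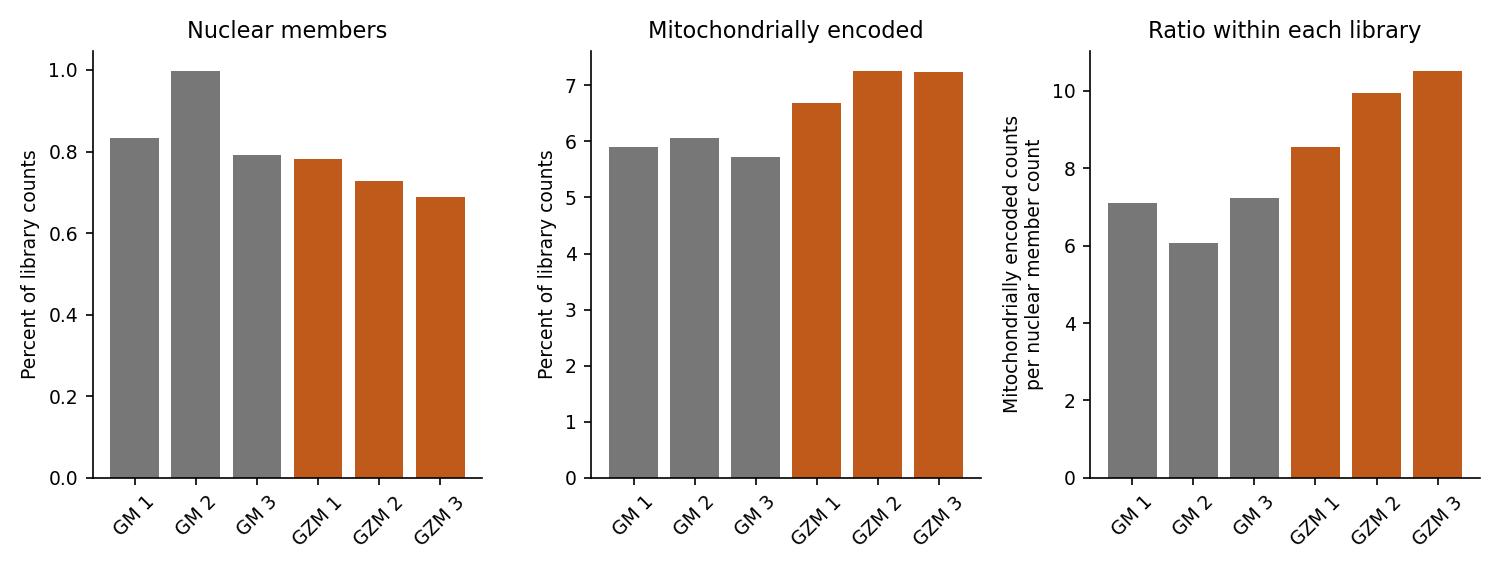
Bars give, for each of the 6 libraries, the percent of counts on nuclear members (left), the percent on the 13 mitochondrially encoded genes (middle) and the ratio of the second to the first within the library (right). The ratio lies between 6.08 and 7.23 in GM and between 8.55 and 10.5 in GZM.

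The nuclear core subunits of complex I, which hold the flavin and the iron-sulfur clusters, were called higher in 5 of 7 cases, with Ndufs1 and Ndufv1 not called. Ndufv2, an iron-sulfur subunit of the NADH-binding module, stood at 58.9, 61.3 and 74.5 CPM in GM 1 to 3, against 125, 140 and 109 CPM in GZM 1 to 3 (log2 fold change 0.94 ± 0.17 SE, edgeR adjusted p = 0.00508). Ndufs3, a subunit of the arm that leads to ubiquinone, stood at 30.1, 36.7 and 41.8 CPM in GM and at 66.1, 67.1 and 61.5 CPM in GZM (0.84 ± 0.16, adjusted p = 0.0057). Ndufs7, which carries the last cluster before ubiquinone, stood at 16.4, 17.5 and 19.7 CPM in GM and at 38.3, 37.5 and 27.0 CPM in GZM (0.94 ± 0.19, adjusted p = 0.00668). For all 3 genes every GZM library lay above every GM library, as for 28.4% of all tested genes. They were taken by smallest p in their class, so this separation adds no support to their calls. The same holds for the genes taken by smallest p in the classes below. On library totals none of the 3 was called (0.11, 0.02 and 0.10).

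Ndufs1, the largest subunit and the carrier of several iron-sulfur clusters, stood at 117, 154 and 97.9 CPM in GM and at 125, 123 and 117 CPM in GZM (log2 fold change -0.02 ± 0.20 SE, adjusted p = 0.956), so its groups overlapped. It was named after its values were seen. With library totals it was called lower (-0.87, adjusted p = 0.0129). Its ratio to Ndufv2 in the same library needs no scaling. Since Ndufv2 was called higher and Ndufs1 was picked with its values known, a lower ratio in GZM was likely beforehand and is only a description. For each Ndufv2 count there were 1.98, 2.51 and 1.31 Ndufs1 counts in GM and 0.994, 0.876 and 1.075 in GZM, with no overlap. Ndufv1, which binds NADH, was not called (0.42 ± 0.18, adjusted p = 0.0911). Like Ndufs1 it stood lower against the median nuclear member in every GZM library (-0.32), as 60.4% of all tested genes did.

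**Figure D3:**
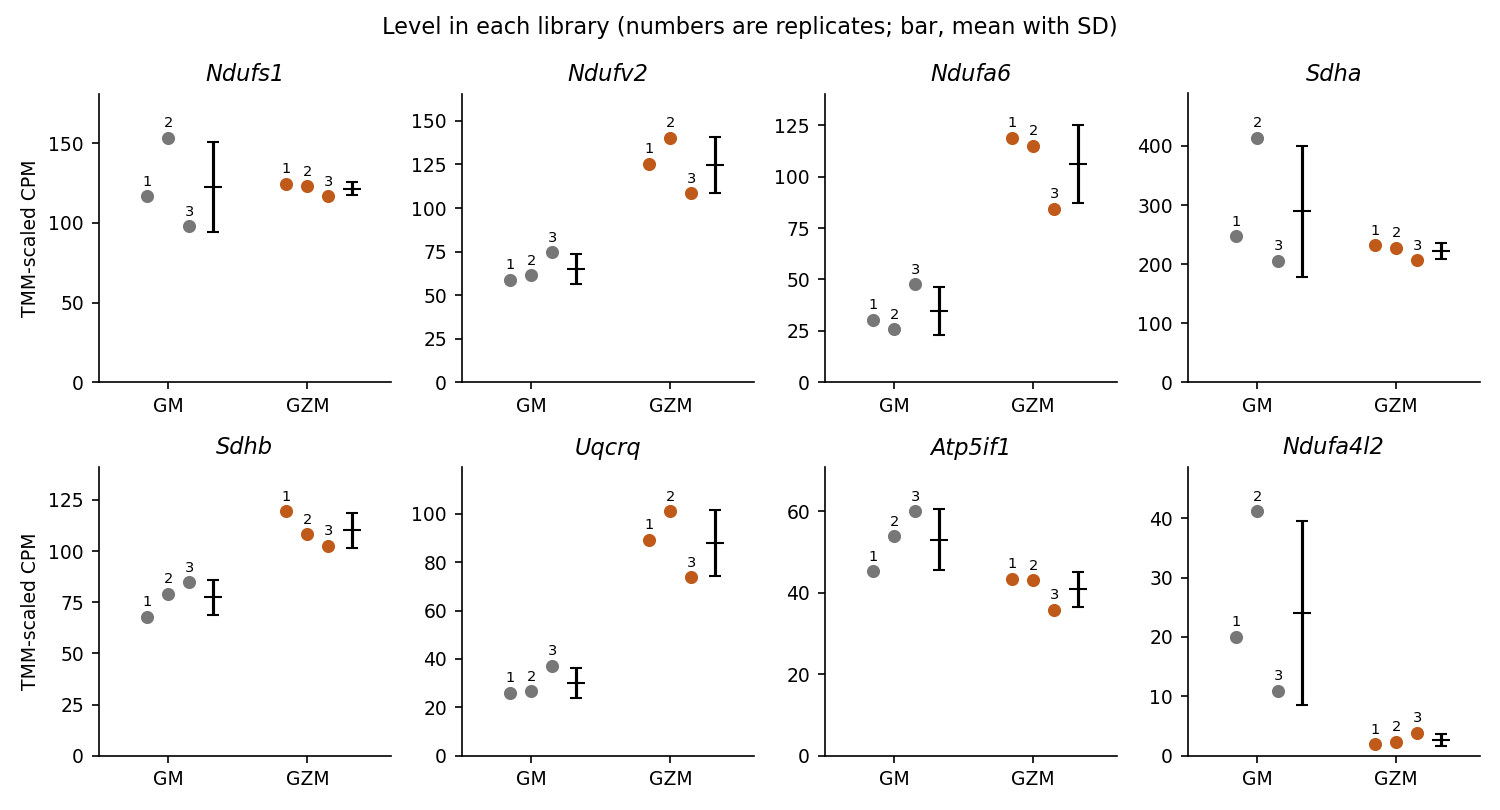
TMM-scaled CPM of 8 members in each library (points, numbered by replicate) with the group mean and SD (bars) for GM and GZM. Ndufv2, Ndufa6, Sdhb and Uqcrq are higher in all GZM libraries, Atp5if1 and Ndufa4l2 are lower in all GZM libraries, and the groups overlap for Ndufs1 and Sdha.

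Accessory subunits of complex I, which surround and stabilize the core, were led by Ndufa6. This small protein of the LYR family (ENSRNOG00000008569, chromosome 7, 123583062 to 123586919 in the deposited table) stood at 30.4, 25.7 and 47.8 CPM in GM and at 119, 115 and 84.4 CPM in GZM. It was 3.07-fold higher in GZM (log2 fold change 1.62 ± 0.26 SE, adjusted p = 0.00355) and was the only nuclear gene of complex I also called higher with library totals (0.81, adjusted p = 0.00967). Ndufc1, a single-pass membrane subunit, stood at 21.3, 23.0 and 29.1 CPM in GM and at 71.0, 59.6 and 47.0 CPM in GZM (1.28 ± 0.20, adjusted p = 0.00333; 0.45 on library totals, adjusted p = 0.0583). Ndufb9, another LYR protein, stood at 54.0, 61.7 and 68.5 CPM in GM and at 128, 147 and 119 CPM in GZM (1.10 ± 0.17, adjusted p = 0.00306). The groups did not overlap for any of the 3 genes.

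The remaining accessory subunits rose by 0.42 to 1.24 where they were called. Ndufa9, a subunit at the joint of the 2 arms, stood at 84.1, 124 and 106 CPM in GM and at 142, 117 and 100.4 CPM in GZM and was not called (0.19 ± 0.21, adjusted p = 0.472). Ndufa12 was not called either (-0.10 ± 0.23, adjusted p = 0.744), at 7.14, 8.26 and 7.81 CPM in GM and 8.42, 6.69 and 6.60 CPM in GZM. Both were called lower with library totals (-0.65, adjusted p = 0.0281, and -0.93, adjusted p = 0.0112). Ndufs6 and Ndufa1, subunits that every complex I holds, had 10 and 13 counts in all 6 libraries together and were not tested. How reads were shared between such genes and near-identical copies elsewhere in the genome is not given in the sources used here, so levels that low are uncertain. The same holds for Atp5pb of ATP synthase, at 9 to 21 counts per library, and for the second rows of Ndufv3, Uqcrb and Cox6b1.

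The Nduf assembly factors help to build complex I and are not part of the finished enzyme. Ndufaf1, which acts on the membrane arm, stood at 14.4, 14.0 and 15.4 CPM in GM and at 21.6, 21.5 and 24.9 CPM in GZM (log2 fold change 0.64 ± 0.16 SE, adjusted p = 0.0167). Ndufaf3 stood at 11.2, 13.6 and 11.2 CPM in GM and at 22.4, 19.8 and 15.9 CPM in GZM (0.69 ± 0.20, adjusted p = 0.0277). These 2 were the factors called higher. Both calls were lost without 3 of the 6 single libraries, GM 1 among them for Ndufaf3 and for Ndufaf1 (highest adjusted p = 0.0739 for Ndufaf1 and 0.0925 for Ndufaf3). Ndufaf2, at 3.95, 5.15 and 4.83 CPM in GM and 6.72, 9.52 and 6.28 CPM in GZM, had groups that did not overlap but was not called (0.69 ± 0.27, adjusted p = 0.0723).

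The other factors were not called on the TMM scale. Ndufaf4 stood at 33.4, 50.3 and 34.8 CPM in GM and at 29.7, 36.9 and 36.9 CPM in GZM (-0.20 ± 0.20, adjusted p = 0.45). Ndufaf5, a modifier of Ndufs7, had a log2 fold change of -0.09 ± 0.21, Ndufaf6 one of -0.37 ± 0.33 and Ndufaf7, a methyltransferase, one of 0.15 ± 0.18, none of them called. All 4 were called lower with library totals (-1.04, -0.94, -1.22 and -0.69 in that order), a scale on which 59.5% of all genes were. Against the median nuclear member of the same library, these 4 stood lower in every GZM library than in any GM library, and none of the 8 factors stood higher. On this scale 60.4% of all tested genes stood lower and 10.6% higher. For each Ndufaf1 count there were 2.32, 3.61 and 2.26 Ndufaf4 counts in GM and 1.38, 1.72 and 1.48 in GZM.

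Complex II, which also serves as the citric acid cycle's succinate dehydrogenase, split between its catalytic flavoprotein and its other subunits. Sdhc, a membrane anchor, stood at 79.9, 85.5 and 88.9 CPM in GM and at 141, 154 and 130.3 CPM in GZM (log2 fold change 0.74 ± 0.15 SE, adjusted p = 0.00702). Sdhd, the other anchor, stood at 82.1, 87.7 and 103.6 CPM in GM and at 151, 153 and 134 CPM in GZM (0.68 ± 0.16, adjusted p = 0.013). The iron-sulfur subunit Sdhb stood at 67.8, 79.2 and 84.9 CPM in GM and at 119.5, 108 and 102.5 CPM in GZM (0.51 ± 0.16, adjusted p = 0.032). All 3 genes had GZM libraries above all GM libraries, and the Sdhb call was made in 1 of the 6 fits that each left out 1 library, the one without GM 3. Sdha, the flavoprotein (ENSRNOG00000013331, chromosome 1, 31545631 to 31570601 in the deposited table), stood at 247, 414 and 206 CPM in GM and at 232, 227 and 206 CPM in GZM, so its groups overlapped and GM 2 was far above the rest (-0.38 ± 0.27, adjusted p = 0.287). With library totals it was called lower (-1.25, adjusted p = 0.00826). For each Sdhb count there were 3.64, 5.23 and 2.43 Sdha counts in GM 1 to 3, against 1.94, 2.10 and 2.01 in GZM 1 to 3. The GZM libraries were close together in this ratio, at 2.02 ± 0.0823, and all below GM, at 3.77 ± 1.41 (SD, n = 3 each). Sdha was named after its values were seen.

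Complex III passes electrons from ubiquinol to cytochrome c. Its leading member was Uqcrq, a small membrane subunit, at 25.99, 26.6 and 37.1 CPM in GM and 89.3, 101.2 and 73.9 CPM in GZM. It was 2.94-fold higher (log2 fold change 1.56 ± 0.20 SE, adjusted p = 0.00236) and kept its call with library totals (0.73, adjusted p = 0.00547). The chromosome 7 row of Uqcrb, which lies at the ubiquinone site, stood at 34.3, 30.3 and 43.2 CPM in GM and at 70.9, 78.3 and 56.5 CPM in GZM (0.93 ± 0.19, adjusted p = 0.00745). Uqcr11, another small subunit, stood at 35.2, 40.3 and 47.4 CPM in GM and at 73.6, 69.95 and 58.6 CPM in GZM (0.72 ± 0.17, adjusted p = 0.0118). None of these 3 genes had overlapping groups. The hinge protein Uqcrh was not called (0.33 ± 0.16, adjusted p = 0.13) and was called lower with library totals (-0.51, adjusted p = 0.0261). Every one of the 10 complex III rows had GZM libraries all above GM libraries in CPM, where 28.4% of all tested genes did. On shares of the library total, 1 row did and 5 rows lay all below, against 10.5% and 64.7% of all genes.

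Nuclear promoters of the chain are known for binding sites of NRF1, GABP and other factors of housekeeping genes, and Ndufa4l2 is known as a target of hypoxia-inducible factor. RefSeq promoter windows of the GRCr8 build were matched to 78 of the 93 nuclear members, and the 250 bases before the start were searched on both strands. For Atp5md, Ndufs6 and Cox7a2l2 the window lay on another chromosome than the counted row, so it may belong to another locus. These windows are in the shares below, with an NRF1 match for Ndufs6 and a GABP match for Atp5md. The NRF1 letters, GCGCA, any base and GCGC, were in 13 of 78 (16.7%) and in 4.17% of all 27457 windows, and the GABP letters CCGGAAG were in 21 of 78 (26.9%) and in 7.74% of all. The hypoxia core ACGTG was in 24.4% against 16.9%, the YY1 letters AAGATGGC in 2.56% against 1.69%, and CCAAT in 32.1% against 34.3%. A match is a description of letters, not a bound site. The 4 windows printed are those of Uqcrq, Ndufa6, Sdha and Ndufa4l2. Uqcrq and Ndufa6 differed most upward from the rest of the chain among nuclear members whose groups did not overlap. Sdha and Ndufa4l2 stood lower against the median nuclear member. Sdha was not the next lowest there, since Atp5if1 (-1.13) and Cox4i2 (-1.10) lay below it (-1.08). The Atp5if1 window held neither NRF1 nor GABP letters. The windows run 5′ to 3′ on the gene's strand, with matches to 1 motif per gene in capitals. These are NRF1 letters for Sdha (chr1:30764303-30764552, plus strand) and GABP letters for Uqcrq (chr10:38089979-38090228, minus strand) and Ndufa6 (chr7:115750318-115750567, minus strand). For Ndufa4l2 (chr7:65241919-65242168, plus strand) the motif is ACGTG, which has no match in this window. Matches to other motifs are not marked, such as 1 of ACGTG in the Uqcrq window.
Sdha: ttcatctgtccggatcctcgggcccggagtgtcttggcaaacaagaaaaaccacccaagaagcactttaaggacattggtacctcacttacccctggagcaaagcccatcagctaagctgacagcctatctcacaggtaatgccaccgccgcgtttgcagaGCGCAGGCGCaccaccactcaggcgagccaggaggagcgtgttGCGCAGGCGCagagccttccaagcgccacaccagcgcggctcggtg
Uqcrq: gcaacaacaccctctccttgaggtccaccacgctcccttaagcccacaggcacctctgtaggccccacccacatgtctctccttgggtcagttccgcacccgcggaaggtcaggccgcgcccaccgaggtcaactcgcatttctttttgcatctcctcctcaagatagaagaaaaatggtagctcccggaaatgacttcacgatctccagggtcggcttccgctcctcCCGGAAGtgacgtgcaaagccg
Ndufa6: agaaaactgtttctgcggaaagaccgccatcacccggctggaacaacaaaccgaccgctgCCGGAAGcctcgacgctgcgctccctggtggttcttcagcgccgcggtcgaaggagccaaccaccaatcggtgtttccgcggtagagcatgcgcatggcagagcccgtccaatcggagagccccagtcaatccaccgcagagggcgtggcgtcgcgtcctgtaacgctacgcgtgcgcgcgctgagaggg
Ndufa4l2: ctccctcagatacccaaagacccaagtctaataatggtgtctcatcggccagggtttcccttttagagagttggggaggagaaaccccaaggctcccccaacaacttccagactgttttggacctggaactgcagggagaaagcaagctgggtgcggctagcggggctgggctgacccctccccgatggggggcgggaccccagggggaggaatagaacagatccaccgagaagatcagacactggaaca

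In complex IV, the enzyme that uses oxygen, 8 of 16 tested genes rose and Ndufa4l2 fell. Among those that did not pass were the common subunits Cox8a (0.34, adjusted p = 0.123), the chromosome 1 row of Cox6b1 (0.39, adjusted p = 0.097) and Ndufa4 (0.41, adjusted p = 0.221). Cox5b stood at 57.8, 62.2 and 57.9 CPM in GM and at 125, 98.7 and 90.0 CPM in GZM (log2 fold change 0.82 ± 0.17 SE, adjusted p = 0.00732). Cox5a stood at 66.0, 74.4 and 77.3 CPM in GM and at 115, 149.9 and 111 CPM in GZM (0.79 ± 0.18, adjusted p = 0.00965). The groups did not overlap for either gene, and with library totals the values were -0.02 and -0.05. Cox4i1, the common regulatory subunit, rose by 0.74 (adjusted p = 0.0228) and was called in 2 of the 6 fits that left out a library. Cox7a2l, which links complexes III and IV into supercomplexes, was not called (0.07 ± 0.17, adjusted p = 0.772) and was called lower with library totals (-0.76, adjusted p = 0.00488). For each Cox7c count there were 1.04, 0.859 and 0.952 Cox7a2l counts in GM and 0.565, 0.489 and 0.585 in GZM.

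Ndufa4l2 (ENSRNOG00000031851, chromosome 7, 70821957 to 70824085 in the deposited table) was the single member called lower on the TMM scale. It is known to be induced in hypoxia and to restrain complex I. It stood at 20.1, 41.2 and 10.9 CPM in GM 1 to 3, against 1.91, 2.36 and 3.85 CPM in GZM 1 to 3. GM varied widely between its libraries, and every GZM library was still below the lowest of them. Its mean level was 8.80-fold lower in GZM (log2 fold change -3.14 ± 0.53 SE, adjusted p = 0.00384). The call was made in all 6 fits that left out 1 library (adjusted p from 0.000344 to 0.021), and with library totals the log2 fold change was -4.01. Without GM 3 it was -3.44. Pericytes and related cells are known to express this gene. The stellate and fibroblast list summed to 3555 to 9697 CPM in GM and 1811 to 4192 CPM in GZM, with 1 of its 8 genes called lower and 1 higher, and its part in the Ndufa4l2 value was not tested.

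Several complex IV subunits have a common form and a second form used in particular tissues or conditions, and their ratio within a library needs no scaling. Ndufa4l2 came to 15.6%, 17.5% and 7.46% of Ndufa4 by FPKM (counts scaled to exon length and library size) in GM and to 0.802%, 0.956% and 1.97% in GZM. Cox4i2, the form known from lung and from hypoxia, came to 1.53%, 1.04% and 0.920% of Cox4i1 in GM and to 0.605%, 0.512% and 0.492% in GZM. Cox6a2, the heart and skeletal muscle form, came to 1.11%, 1.43% and 0.672% of Cox6a1 in GM and to 0.0894%, 0.163% and 0.0825% in GZM. In these 3 pairs no GZM library reached the lowest GM library. The mean log2 ratios differed by -3.47, -1.09 and -3.27, each with an exact two-sided permutation p = 0.1, the smallest that 3 against 3 can give (0.133 adjusted over the 4 pairs). Cox6b2, the testis form, against the chromosome 1 row of Cox6b1 had overlapping groups (difference -0.31, exact permutation p = 0.7).

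**Figure D4:**
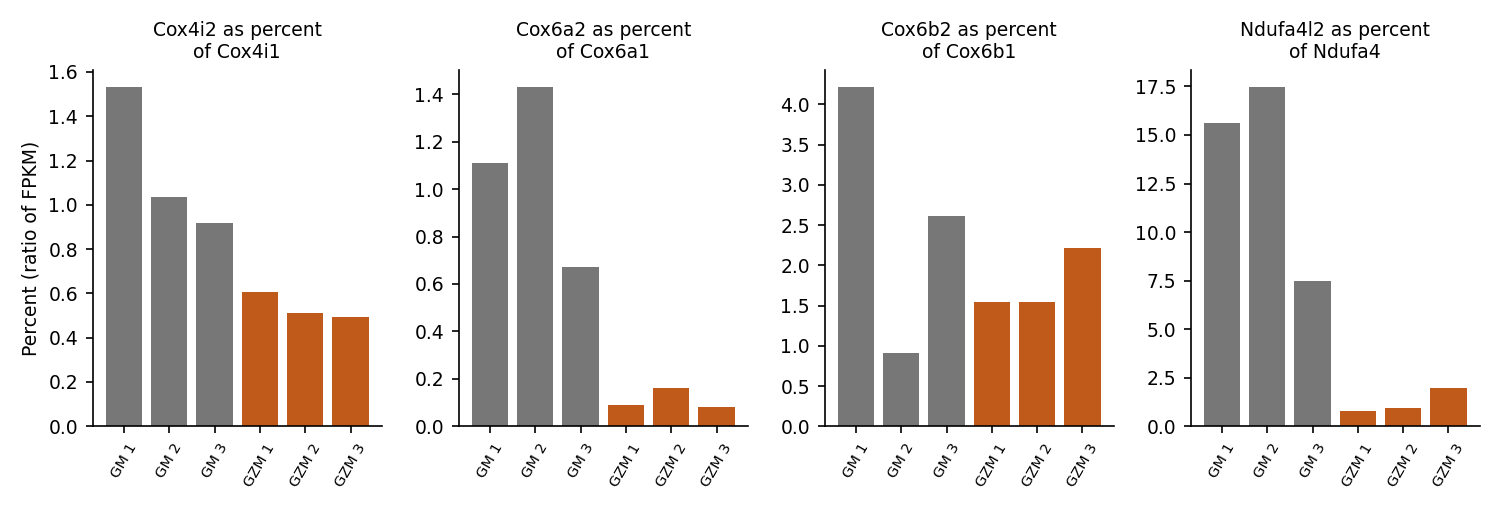
Bars give the FPKM of the second isoform as a percent of its common partner in each library (grey, GM; orange, GZM), on a separate linear axis for each pair. For Cox4i2, Cox6a2 and Ndufa4l2 all 3 orange bars are below all 3 grey bars, and for Cox6b2 they overlap.

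Depth limits what can be said of the rare forms. Cox6a2 rested on 14, 27 and 10 counts in GM and on 1, 2 and 1 counts in GZM. It did not pass the low-count filter, and was called lower by edgeR without that filter (log2 fold change -2.64, adjusted p = 0.0214) and by DESeq2 (-2.67, adjusted p = 0.0249). Among the striated muscle markers, 2 of 9 matched genes reached the test and neither was called (unadjusted p = 0.317 and 0.332 in edgeR), the sum was 5.66 to 10.2 CPM in GM and 4.40 to 6.92 CPM in GZM, and Mb and Myl1 were at 0 in every library. Cox4i2 itself, at 4.05, 3.11 and 3.39 CPM in GM and 3.51, 2.73 and 2.20 CPM in GZM, was not called (-0.33 ± 0.31, adjusted p = 0.417).

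ATP synthase genes were led by subunits of the membrane part. Atp5mc1, which encodes the ring subunit c, stood at 44.8, 59.1 and 52.2 CPM in GM and at 99.3, 99.4 and 88.4 CPM in GZM (log2 fold change 0.88 ± 0.16 SE, adjusted p = 0.00479). Atp5mc3, another gene for the same mature subunit, stood at 117, 135 and 123 CPM in GM and at 229, 254 and 200.2 CPM in GZM (0.87 ± 0.17, adjusted p = 0.0064). Atp5me stood at 22.9, 25.8 and 30.9 CPM in GM and at 56.8, 57.6 and 43.6 CPM in GZM (0.99 ± 0.18, adjusted p = 0.00499). All 3 had groups that did not overlap, and none was called with library totals (0.04, 0.02 and 0.16). The catalytic subunit Atp5f1b, at 746.7 ± 69.97 CPM in GM and 1308 ± 161 CPM in GZM, rose by 0.81 (adjusted p = 0.0228) and was called in 2 of the 6 fits that left out a library (adjusted p up to 0.0986).

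The 3 genes for subunit c did not move alike. Atp5mc2, the remaining one, stood at 145, 216 and 142 CPM in GM and at 175, 165 and 136 CPM in GZM (-0.08 ± 0.22, adjusted p = 0.78) and was called lower with library totals (-0.94, adjusted p = 0.0106). For each Atp5mc3 count there were 1.25, 1.602 and 1.16 Atp5mc2 counts in GM and 0.766, 0.649 and 0.677 in GZM. Atp5f1a, the partner of Atp5f1b in the catalytic head, came to 0.674, 0.861 and 0.545 counts per Atp5f1b count in GM and to 0.425, 0.436 and 0.491 in GZM, and was not called (0.19 ± 0.21, adjusted p = 0.485).

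Atp5if1 encodes the inhibitor that keeps ATP synthase from running backwards when respiration fails. It stood at 45.2, 53.8 and 59.99 CPM in GM and at 43.4, 43.1 and 35.8 CPM in GZM, and did not pass the test on the TMM scale (-0.38 ± 0.16, adjusted p = 0.0931). With library totals it was called lower (-1.21, adjusted p = 0.000994). For each 1 count of Atp5f1b there were 0.0650, 0.0749 and 0.0726 counts of Atp5if1 in GM and 0.0294, 0.0333 and 0.0310 in GZM. This ratio was tight in both groups, at 0.0708 ± 0.00514 and 0.0312 ± 0.00193 (SD, n = 3 each), and the groups lay far apart. Atp5if1 and the other genes named with within-library ratios were chosen after their values were seen. Outside the isoform pairs, their partners were genes called higher on the TMM scale. Lower ratios in GZM were therefore likely beforehand, and these ratios describe the libraries without adding support.

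Per length, the mitochondrially encoded genes ran in GM from Mt-nd4 at 243.8 FPKM, below Atp5f1b at 559.7 FPKM, up to Mt-co1. Mt-co1, the catalytic subunit of complex IV, stood at 12177 ± 493 FPKM in GM and 14812 ± 632 FPKM in GZM, where Cox4i1 stood at 389.8 and 368.2 FPKM. Mt-co1 was also the single one of the 13 not called (log2 fold change 1.11 ± 0.42 SE, adjusted p = 0.0635), although its CPM did not overlap between groups. It was called in 1 of the 6 fits that left out a library, the one without GM 3 (1.27, adjusted p = 0.00688), and reached an adjusted p = 0.23 in another.

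The leading mitochondrial genes encode subunits of complex I. Mt-nd6, encoded on the other strand than the remaining protein genes, stood at 275, 283 and 396 CPM in GM and at 965, 982 and 833 CPM in GZM (1.54 ± 0.24, adjusted p = 0.00306). Mt-nd4 stood at 240, 226 and 296 CPM in GM and at 577, 709 and 686 CPM in GZM (1.37 ± 0.21, adjusted p = 0.00309). These 2 were called higher with library totals too (0.72, adjusted p = 0.0115, and 0.55, adjusted p = 0.0337). Mt-nd3 stood at 438, 478 and 466 CPM in GM and at 889, 995 and 871 CPM in GZM (1.00 ± 0.20, adjusted p = 0.00662; 0.16 on library totals). Genes on this short genome overlap or face each other across strands, as Mt-atp8 (7758 to 7961) and Mt-atp6 (7919 to 8599) do by their positions in the deposited table. The log2 fold changes of these neighbours were 0.84 and 1.19. Whether counting used the strand is not given in the sources used here, so the values of Mt-nd6 and of overlapping genes are uncertain. The libraries were enriched for polyadenylated transcripts, and the part of this step in the mitochondrial values was not tested.

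Setting each member against the median nuclear member of its own library removes the scaling and describes its place among the rest of the chain. Of 90 tested nuclear members, 50 had overlapping groups, 30 stood lower in every GZM library and 10 stood higher, where 60.4% of all tested genes stood lower and 10.6% higher on this scale. The reference is the median of these same 90 members, so their differences centre near 0 by construction. The smaller share of lower members therefore adds no support, and the share of higher members was near that of all genes. The higher ones were 8 accessory subunits of complex I, Uqcrq and Atp5me. Ndufa6 differed by 0.89 and Uqcrq by 0.81 on the log2 scale. The lower ones included Ndufa4l2 (-3.77), Atp5if1 (-1.13), Cox4i2 (-1.10), Sdha (-1.08), Ndufa12 (-0.86), Atp5mc2 (-0.82) and Ndufs1 (-0.75). In GM the library nearest to GZM was GM 3 for Sdha (2.01, against 2.60 and 3.07 in GM 1 and GM 2 and 1.41 to 1.56 in GZM) and for Ndufa6 (-0.10, against -0.43 and -0.94, and 0.27 to 0.49 in GZM). For Atp5if1 GM 3 was the farthest (0.23, against 0.14 and 0.12, and -1.005 to -0.93 in GZM).

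**Figure D5:**
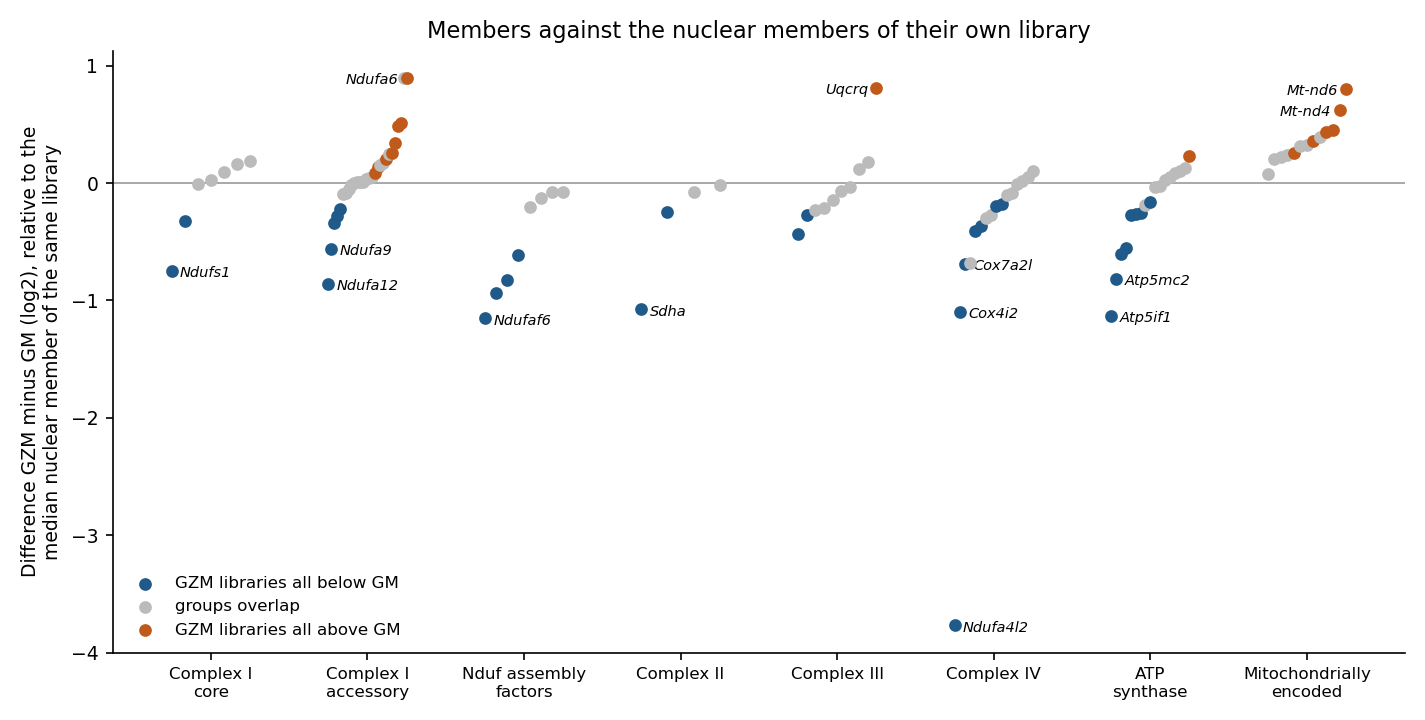
Each point is a tested member, by class; the vertical axis is the GZM minus GM difference in mean log2 level, each level taken against the median nuclear member of the same library, and colour shows whether the 3 GZM libraries lie all above, all below or among the 3 GM libraries. Ndufa4l2 is the lowest at -3.77, the 8 assembly factors all lie below 0, and the mitochondrially encoded genes all lie above 0.

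Members with longer exon models had smaller fold changes. The 8 nuclear members with 2000 bases or more had a median log2 fold change of 0.15, against 0.77 for the 23 under 500 bases, 0.74 for 33 of 500 to under 1000 bases and 0.66 for 26 of 1000 to under 2000 bases. Over all tested genes the medians of the same bins ran from -0.16 (2000 or more) to 0.07 (1000 to under 2000). Across the 90 nuclear members Spearman's rho between exon length and fold change was -0.35, and across all 14298 genes it was -0.11. The points share the same 6 libraries and are not independent. RNA integrity per library was not used here, and its part in this trend was not tested.

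Other genes of the pathway, from lists that hold no member, moved less evenly. In the same fit 22.2% of all tested genes were called higher and 21.7% lower. Of 40 tested assembly factors for complexes I to V outside the Nduf names, 12 were called higher (median 0.37), with Cox16 (1.16, adjusted p = 0.0035), Tmem70 (1.08, adjusted p = 0.00382) and Ecsit (0.99, adjusted p = 0.00481) of smallest p. Among 17 genes of electron carriers and ubiquinone synthesis, 10 were called higher and 1 lower (median 0.67). The carriers that feed electrons from fatty acid oxidation had the smallest p, with Etfa higher by 1.56, Etfdh by 1.72 and Etfb by 1.93, and all 3 were called with library totals too. Coq8a, a kinase-like protein of ubiquinone synthesis, rose by 2.19 (adjusted p = 0.0142), and was picked with its values known. The glycerol phosphate dehydrogenase Gpd2, which feeds in electrons from the cytosol, fell by 1.14 (adjusted p = 0.0168), and was named after its values were seen.

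Genes that copy and express mitochondrial DNA or drive mitochondrial growth showed no such majority. Of 22 tested, 4 were called higher and 3 lower (median 0.17). For this list and the next, the shares over all tested genes were 22.2% higher and 21.7% lower. Tfb2m, which starts transcription of mitochondrial DNA, rose by 0.92 (adjusted p = 0.00384) and Fastk by 1.06 (adjusted p = 0.00483), while the coactivator gene Pprc1 fell by 1.24 (adjusted p = 0.00709). Of 17 tested genes that report mitochondrial mass, 2 were called higher and 2 lower, with a median of -0.02. There the nucleotide carrier Slc25a4 fell by 1.47 (adjusted p = 0.00483) and citrate synthase (Cs) by 0.65 (adjusted p = 0.03), and Vdac3 rose by 0.53 (adjusted p = 0.0355). With library totals these last 2 lists had 15 of 22 and 14 of 17 genes called lower, where 59.5% of all genes were.

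On the TMM scale, the order of the libraries was partly shared between the chain and the hepatocyte list. On both, every GZM library lay above every GM library, GM 3 was highest in GM and GZM 3 lowest in GZM. GM 1 and GM 2 changed places between the chain and the list, as did GZM 1 and GZM 2. Within GM, the median nuclear member stood at 5.35, 5.63 and 5.68 log2 CPM in GM 1, 2 and 3, while the hepatocyte sum was 25300, 18190 and 66800 CPM in the same order. Within GZM it stood at 6.45, 6.36 and 6.13 log2 CPM, with hepatocyte sums of 182500, 194400 and 165500 CPM. The order of the chain depended on the scale. As shares of the library total, nuclear members took 0.832%, 0.997% and 0.793% of counts in GM 1 to 3. They took 0.782%, 0.729% and 0.688% in GZM 1 to 3, all below GM, and GM 3 was lowest in GM. Over 6 libraries in 2 separate groups no correlation was computed.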

How the data were processed

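RNA of 6 rat liver samples (GM, n = 3, and GZM, n = 3) was enriched for polyadenylated transcripts and sequenced as strand-specific paired-end libraries, per the labels' protocols. The deposited counts are whole numbers per gene, not normalized, per the file headers. The deposited FPKM values are counts scaled by the authors to exon length and library size; recomputing them gave all 195738 values within 0.01. Which aligner and counter were used is not given in the sources used here. The submitters' processing notes name mRatBN 7.2, but positions reach 282724300 on chromosome 1, beyond that build, so positions are given as deposited. Columns headed ZGM were matched to GZM by letters and numbers.

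All genes were fitted together with edgeR 4.0.16 (R 4.3.3): quasi-likelihood test, TMM factors (0.715 to 1.43), default low-count filter, no covariate, Benjamini-Hochberg adjustment at 0.05. The standard error is the one implied by the quasi-F value. The scripts were tested on simulated data. Alternatives were no filter, library totals, median-of-ratios factors, DESeq2 1.42.0, a replicate block, leaving out each library, and leaving out GM 3 and GZM 1 together. Isoform ratios used exact permutation tests.

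Members, lists and alternatives were chosen with earlier results of these data known. Full values were given, by rule, for the 3 members of smallest p in each class, every member called lower and, as ratios in each library, the isoform pairs, and for listed genes outside the members by smallest p. Of 224 listed symbols in 17 lists, 11 were not matched. The cholangiocyte list had 2 of 7 tested genes called higher, the erythroid list 3 of 5, and the testis germ cell list 0 of 1 (Sycp3, unadjusted p = 0.0545 in edgeR). Chi-square per degree of freedom between replicates was 8.54 or more, so each library counted as 1 sample. Figures were drawn with matplotlib 3.10.9.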

Additional observations from a re-analysis of the deposited data

How the results depend on the processing

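With library totals, 1315 genes were called higher and 8513 lower, and 4 and 18 members. On that scale the log2 fold change turned negative for Sdhc (-0.0953), Sdhd (-0.15), Sdhb (-0.32), Uqcr11 (-0.11), Cox5b (-0.0239), Cox5a (-0.0499), Cox4i1 (-0.083), Cox6a1 (-0.27), Cox6b1 (-0.44), Ndufa4 (-0.44), Ndufaf1 (-0.19), Ndufaf3 (-0.16), Ndufaf2 (-0.15), Ndufv1 (-0.42), Ndufa9 (-0.65), Atp5f1a (-0.65), Atp5f1b (-0.022), Ndufaf7 (-0.69), Ndufaf8 (-0.32), Cox7a2l (-0.76), Uqcrh (-0.51) and Mt-atp8 (-0.0074). DESeq2, no low-count filter, and leaving out both GM 3 and GZM 1 each called 2 members lower (with the first 2, Ndufa4l2 and Cox6a2). Leaving out 1 library gave 2112 to 3592 genes higher and 1665 to 3432 lower, and 39 to 78 members higher and 1 to 2 lower. The lowest counts of genes in either direction and of members called higher were without GZM 2.

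Some members near no change switched sign, none of them called, and the cause was not tested. Cox6b2 ran from -0.53 to 0.27 over the fits that left out 1 library, and turned to 0.032 with the replicate block, 0.27 without GM 1, 0.013 without GM 3 and 0.082 without both GM 3 and GZM 1. Ndufs1 ran from -0.11 to 0.18 over the fits that left out 1 library, and turned to 0.013 with median-of-ratios factors, 0.0024 in DESeq2, 0.0093 with the replicate block, 0.18 without GM 2 and 0.025 without GZM 3. Atp5mc2 ran from -0.18 to 0.14 over the fits that left out 1 library, and turned to 0.14 without GM 2 and 0.031 without GZM 3. Ndufaf4 ran from -0.31 to 0.02 over the fits that left out 1 library, and turned to 0.017 without GM 2. Ndufaf5 ran from -0.15 to 0.08 over the fits that left out 1 library, and turned to 0.084 without GM 2. Cox7a2l ran from -0.02 to 0.21 over the fits that left out 1 library, and turned to -0.025 without GZM 1.

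Isoform differences leaving out 1 library ran from -1.24 to -0.87 for Cox4i2, -3.57 to -3.02 for Cox6a2, -3.85 to -3.21 for Ndufa4l2 and -0.93 to 0.17 for Cox6b2. With the 10 most abundant nuclear genes taken out of the denominator, mitochondrially encoded genes took 6.38% of counts in GM and 8.97% in GZM, and nuclear members 0.944% in GM and 0.931% in GZM, so the lower nuclear share in GZM was not seen with this denominator. Same-numbered samples of the groups showed no strong shared deviation (correlations of -0.15, 0.17 and -0.31). Differently numbered samples gave -0.23 to 0.31, so with 3 libraries per group this cannot settle whether the numbers pair samples. With the replicate number as a block, 2676 genes were called higher and 2490 lower, and 50 members higher and 1 lower. Counts of 1 to 27 per library for Cox6a2 and 17 to 61 for Cox6b2 limit their precision. Raw counts in place of FPKM gave the same isoform differences.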
